A study of Rattus norvegicus with 144 samples.

Results

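Chemokines and their receptors were followed in rat blood after oral acetaminophen, a painkiller whose overdose damages the liver. The members are all genes on the array whose symbol begins with Ccl, Cxcl, Ccr, Cxcr, Cx3c or Xcr followed by a digit or by l or r. These were 40 of 9653 named genes, on 41 probes: 27 ligands and 13 receptors, with no Xcr gene among them. Of the 40 genes, 30 had enough values to be tested (20 ligands and 10 receptors). Chemokines are small secreted proteins that bind G protein-coupled receptors on leukocytes and steer them along a concentration gradient. Inflammatory ligands are induced in damaged tissue and in activated leukocytes, and homeostatic ligands place lymphocytes in lymphoid organs and epithelia. In whole blood the RNA of both kinds comes from circulating cells, so that a receptor's RNA is also a marker of the cell types that carry it.

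The animals were male F344/N rats, an inbred strain, aged 10 to 12 weeks, and 6 rats formed each of 12 groups. They received 0 (vehicle alone), 150, 1500 or 2000 mg/kg acetaminophen by gavage in 0.5% ethyl cellulose, each dose given in 2 portions, and blood was collected 3, 6 or 24 h later. Each rat was hybridised on 2 two-colour arrays with the dyes exchanged, 144 arrays in all, against RNA pooled in equal parts from 6 vehicle rats of that time. A value below called a log2 ratio is the mean of a rat's 2 arrays, rat over pool, and a value called a log2 difference is the mean of a dose group minus the mean of the 6 individual vehicle rats of the same time. Neither the log base nor the direction of the ratios is stated in the labels or the files. They were read as likely log10 of Cy5 over Cy3, and each higher, lower and fold rests on that reading. Ratios hold no absolute level, so a gene's abundance cannot be compared with that of another gene, and the blood label could not be checked against the level of defining markers. Of 95 listed blood cell marker genes, 60 had enough values to be tested.

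Calls fell on 2 of the members. With limma and Benjamini-Hochberg adjustment over all 14678 features, at an adjusted p under 0.05, the receptor Ccr10 fell at 3 h after 1500 and 2000 mg/kg, and the ligand Ccl6 rose at 24 h after 2000 mg/kg. At 3 h these were 1 of 30 members after 1500 mg/kg and 1 of 30 after 2000 mg/kg, both lower, where 1.29% and 9.23% of all features were called and 1.24% and 8.32% were called lower. At 6 h no member was called after 1500 or 2000 mg/kg (limma), although 4 members had an unadjusted p under 0.05 at each dose, and 0.749% and 9.22% of all features were called. At 24 h no member was called after 1500 mg/kg, with 7 members at an unadjusted p under 0.05 and 1.21% of all features called. After 2000 mg/kg at 24 h the 1 member called compares with 0.818% of features called in either direction and 0.491% called higher. At 150 mg/kg neither a member nor any other feature was called by limma at 3, 6 or 24 h (0% of features), with 0, 1 and 0 members at an unadjusted p under 0.05. Over the 9 comparisons with vehicle together, 3 of 270 member tests were called (1.11%), against 2.5% of the tests of all features.

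**Figure D1:**
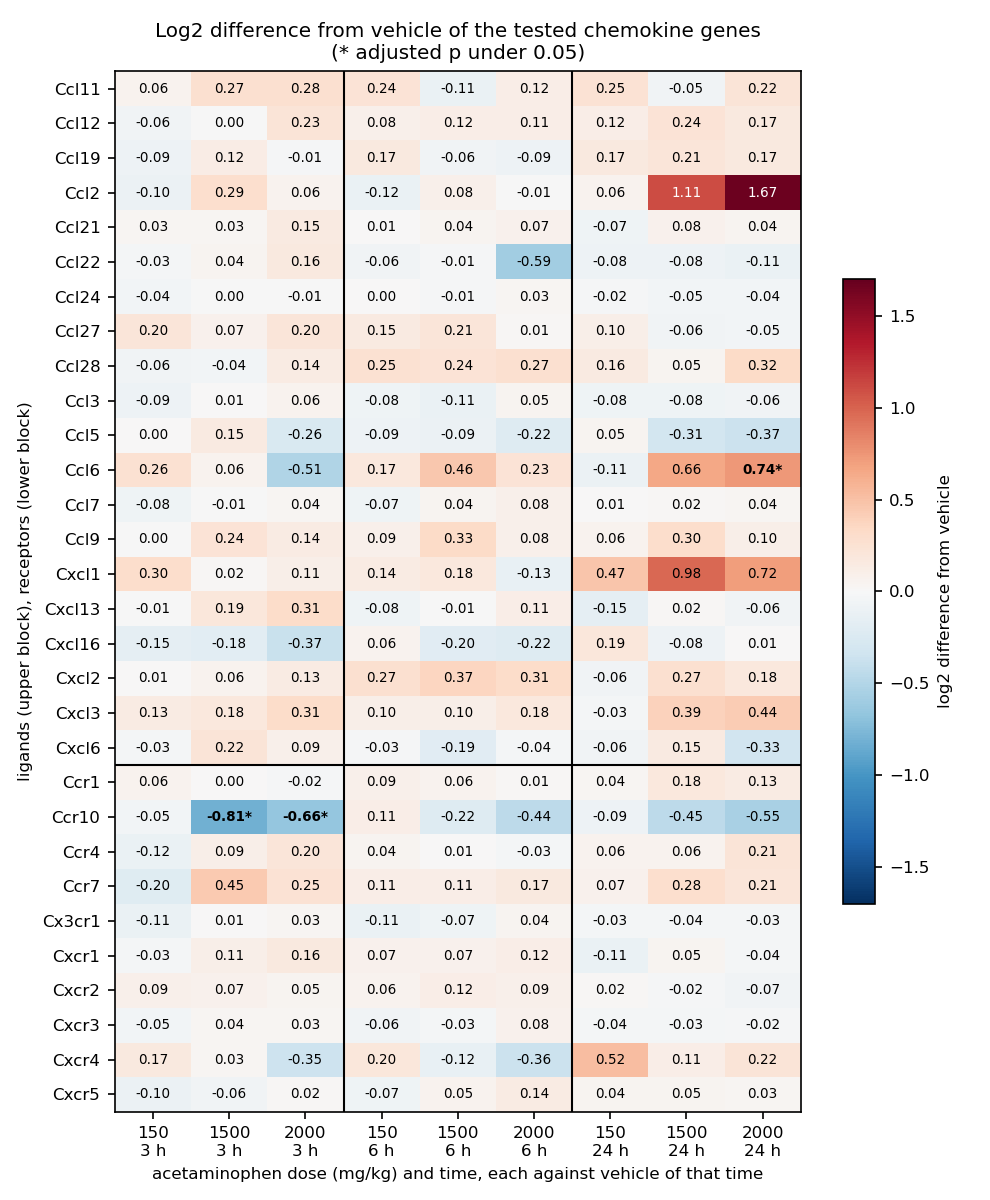
Log2 difference from vehicle for the 20 tested ligands and the 10 tested receptors (rows), at 3 doses and 3 times (columns, dose in mg/kg). Red is higher and blue lower in dosed rats, the number in each cell is the log2 difference, and an asterisk marks an adjusted p under 0.05. The asterisks stand at Ccr10 at 3 h (-0.81 and -0.66) and at Ccl6 at 24 h (0.74), and the 2 darkest red cells are Ccl2 at 24 h (1.11 and 1.67), which carry none.

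Ccr10 is the receptor for Ccl27 and Ccl28 and is known, mainly from mouse and human, on skin-homing T cells and on antibody-secreting cells that home to mucosa. At 3 h its log2 ratio after 1500 mg/kg ran from -1.25 to -0.36 with a median of -0.77. After 2000 mg/kg it ran from -0.85 to -0.45 with a median of -0.69, and in vehicle rats from -0.34 to 0.25 with a median of -0.03. Neither group of the high doses overlapped the vehicle group, and all 6 rats of each dose lay below the lowest vehicle rat. The log2 difference was -0.81 after 1500 mg/kg (SE 0.16, limma adjusted p = 0.00672, 1.76-fold lower) and -0.66 after 2000 mg/kg (SE 0.16, limma adjusted p = 0.00324, 1.58-fold lower). At 150 mg/kg the log2 ratio ran from -0.55 to 0.22, across the vehicle range, and the log2 difference was -0.05 (95% interval -0.37 to 0.27).

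Ccr10 stayed below the vehicle mean in most rats at the later times, where it missed the threshold. At 6 h after 2000 mg/kg the log2 ratio ran from -0.86 to -0.27 with a median of -0.46, against -0.31 to 0.10 with a median of -0.12 in vehicle rats. There 5 of 6 dosed rats lay below the lowest vehicle rat, and the log2 difference was -0.44 (SE 0.16, limma adjusted p = 0.0681). After 1500 mg/kg the 6 h group was wider, from -0.69 to 0.14, and its log2 difference was -0.22 (limma adjusted p = 0.578). At 24 h the log2 ratio ran from -1.10 to -0.18 after 1500 mg/kg and from -1.27 to -0.25 after 2000 mg/kg, against -0.31 to 0.14 in vehicle rats. Both dosed groups overlapped the vehicle group at 24 h, with log2 differences of -0.45 (limma adjusted p = 0.216) and -0.55 (limma adjusted p = 0.0878). The Ccr10 difference was not shown to change between 3 and 24 h: the later minus the earlier difference was 0.36 at 1500 mg/kg (95% interval -0.09 to 0.82) and 0.11 at 2000 mg/kg (95% interval -0.35 to 0.56).

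The arrays came in 2 designs, and 500 features were absent from 91 arrays. At 3 h, among rats with both arrays of the fuller design, the Ccr10 difference was -0.59 after 1500 mg/kg (4 against 2 rats, limma adjusted p = 0.673) and -0.52 after 2000 mg/kg (4 against 2 rats, limma adjusted p = 0.269). In that fuller design no feature at all was called at either dose (0 of 15600 and 0 of 15597), so that the lost call says nothing particular of Ccr10. Among rats with both arrays of the design without those features the Ccr10 difference was -0.95 after 2000 mg/kg (2 against 2 rats, limma adjusted p = 0.0359). There 1332 of 15081 features (8.83%) were called. At 2000 mg/kg the direction was the same in both designs, and at 1500 mg/kg only the fuller design was fitted at 3 h.

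Both ligands of Ccr10 had enough values to be tested and neither was called. Signal over background was not used, so the presence of their RNA in blood was not shown. Ccl27, a keratinocyte chemokine, had log2 differences between -0.06 and 0.21 over the 9 comparisons with vehicle. Ccl28, made by mucosal epithelium, had log2 differences between -0.06 and 0.32. The highest was at 24 h after 2000 mg/kg (limma adjusted p = 0.309), where 6 of 6 rats lay above the vehicle mean.

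Markers of B cells, T cells, monocytes and neutrophils, but hardly those of natural killer cells, had called differences at 3 h. Those of T cells and neutrophils were called there only after 2000 mg/kg, while Ccr10 was called at both high doses. Of 10 tested monocyte markers 1 was lower after 1500 mg/kg (Fn1, -1.64, limma adjusted p = 0.000832). After 2000 mg/kg 5 of them were lower and 1 was higher. Of 11 tested neutrophil markers none was called after 1500 mg/kg and 3 were lower after 2000 mg/kg. Of 11 listed B cell markers 5 were tested, and at 3 h 3 were lower after 1500 mg/kg and 4 after 2000 mg/kg, where 1.24% and 8.32% of all features were called lower. The mean log2 ratio over the B cell list per rat ran from -1.35 to -0.86 after 1500 mg/kg and from -1.72 to -1.06 after 2000 mg/kg, against -0.43 to 0.36 in vehicle rats. The largest falls were of Jchain, which joins polymeric immunoglobulin (log2 difference -1.99, limma adjusted p = 4.65e-05), and of Spib, a B cell transcription factor (-1.76, limma adjusted p = 0.000321), both after 2000 mg/kg at 3 h. Of 16 listed T cell markers 11 were tested. None was called after 1500 mg/kg, where their median log2 difference was -0.62, and 6 were called lower after 2000 mg/kg, among them the surface protein Cd5 (-1.69, limma adjusted p = 0.000124). The T cell list mean ran from -0.69 to -0.37 and from -1.06 to -0.49 in these groups, against -0.25 to 0.04 in vehicle rats, and neither dosed group overlapped the vehicle group. Of 9 tested natural killer markers none was called after 1500 mg/kg and 1 was lower after 2000 mg/kg, with median log2 differences of 0.02 and -0.06, and 1 of 9 is near the share over all features. At 6 h after 2000 mg/kg 4 B cell and 6 T cell markers were lower, where 9.22% of all features were called in either direction, and at 24 h no B or T cell marker was called at either high dose. The part of these lists in the Ccr10 result was not tested, and in whole blood fewer cells of a type cannot be told apart from less RNA per cell.

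Tested lymphocyte chemokine receptors other than Ccr10 gave no call. Cxcr5, which guides B cells to follicles, had log2 differences between -0.10 and 0.14 over the 9 comparisons with vehicle. At 3 h its log2 differences were -0.06 after 1500 mg/kg and 0.02 after 2000 mg/kg, beside the fall of the B cell markers. Ccr7, which brings naive T cells and dendritic cells to lymph nodes, had log2 differences between -0.20 and 0.45. The highest, 0.45 at 3 h after 1500 mg/kg (SE 0.18, limma adjusted p = 0.2), lay opposite in sign to Ccr10 in that comparison. Cxcr4, the receptor for Cxcl12 that retains leukocytes in marrow, had log2 differences between -0.36 and 0.52. Its SE was 0.26 to 0.27, so that changes of this size could not be told from the spread. Cxcr3, a receptor of effector T cells, varied little (-0.06 to 0.08, SE 0.05), and Ccr4, a receptor for Ccl17 and Ccl22, ran from -0.12 to 0.21.

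No tested chemokine receptor of myeloid cells was called, and Ccr2, Ccr3 and Ccrl2 were not tested. Cxcr1 and Cxcr2, the neutrophil receptors for Cxcl ligands, are adjacent genes on chromosome 9. Cxcr2 had log2 differences between -0.07 and 0.12 with an SE of 0.05, and Cxcr1 between -0.11 and 0.16 with an SE of 0.09. At 24 h 4 of 11 tested neutrophil markers were called higher after 1500 mg/kg and 3 of 11 after 2000 mg/kg. Of all features 1.21% and 0.818% were called there in either direction, and the median log2 difference over the 11 markers was 0.28 and 0.14. In the same comparisons Cxcr2 had log2 differences of -0.02 after 1500 mg/kg (95% interval -0.12 to 0.07) and -0.07 after 2000 mg/kg (95% interval -0.16 to 0.03). Ccr1, a receptor for several inflammatory CC ligands, had its highest log2 difference at 24 h after 1500 mg/kg. There its log2 ratio ran from 0.01 to 0.37 with a median of 0.13, against -0.13 to 0.17 with a median of -0.06 in vehicle rats, and the log2 difference of 0.18 missed the threshold (SE 0.06, limma adjusted p = 0.127). Cx3cr1, the fractalkine receptor of patrolling monocytes, had log2 differences between -0.11 and 0.04.

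**Figure D2:**
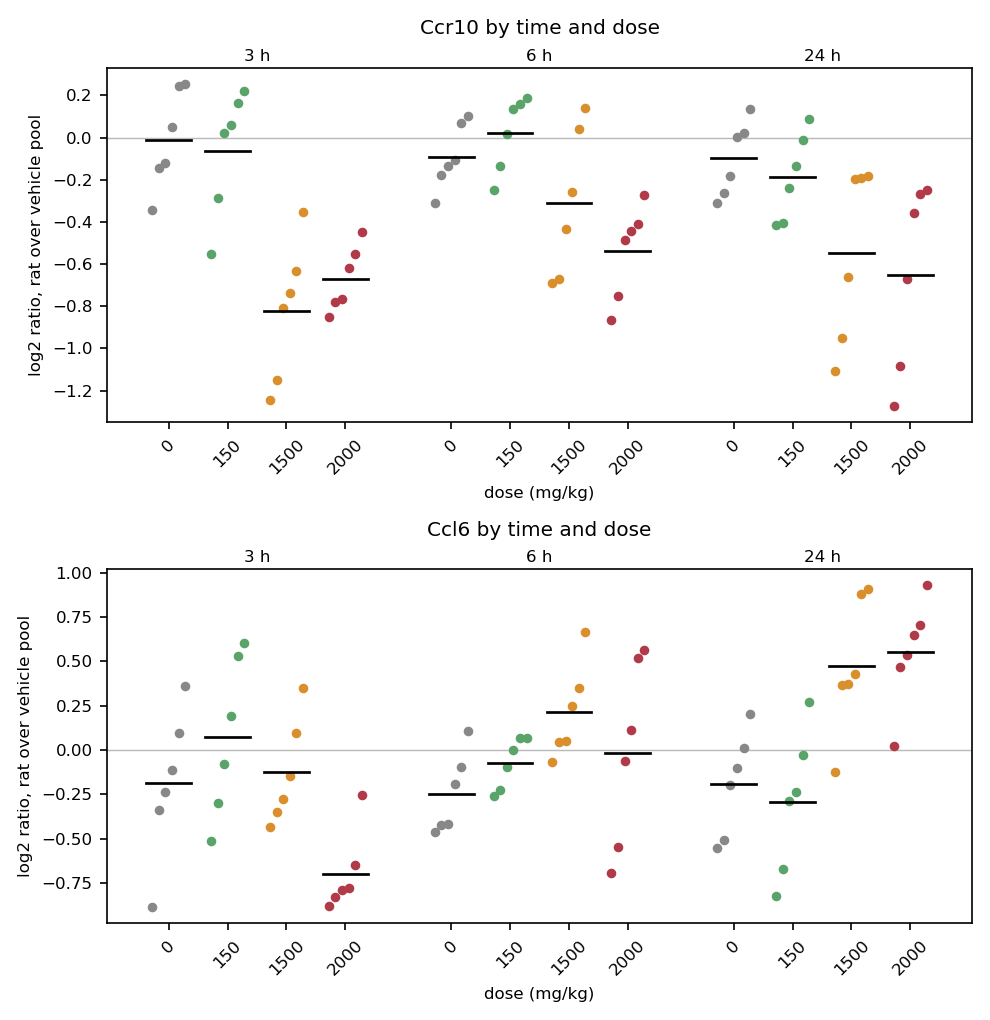
Log2 ratio of each rat over the vehicle pool for Ccr10 (top) and Ccl6 (bottom) by dose in mg/kg at 3, 6 and 24 h. A point is the mean of a rat's 2 arrays and a black bar the mean of 6 rats. Ccr10 is low in all 12 rats of the 2 high doses at 3 h (-1.25 to -0.36), and Ccl6 at 2000 mg/kg lies at -0.88 to -0.26 at 3 h and at 0.02 to 0.93 at 24 h.

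Ccl6 is a CC chemokine of rodents that attracts macrophages and other leukocytes in mouse. At 24 h after 2000 mg/kg its log2 ratio ran from 0.02 to 0.93 with a median of 0.59, against -0.55 to 0.20 with a median of -0.15 in vehicle rats. The groups overlapped, with 5 of 6 dosed rats above the highest vehicle rat. The log2 difference was 0.74 (SE 0.20, limma adjusted p = 0.0445, 1.67-fold higher). After 1500 mg/kg the log2 ratio at 24 h ran from -0.12 to 0.91 with a median of 0.40, and again 5 of 6 rats lay above the highest vehicle rat. That difference of 0.66 missed the threshold (SE 0.20, limma adjusted p = 0.082), and the 2 doses differed from each other by 0.08 (95% interval -0.31 to 0.47).

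The Ccl6 call at 24 h lay close to the threshold. When 1 of the 12 rats was left out in turn, it was kept without vehicle rat 7067 or 2000 mg/kg rat 5402 and was lost without any of the other 10, with adjusted p up to 0.129 and log2 differences between 0.67 and 0.85. It was also lost with exact zeros kept as values (adjusted p = 0.0548), with array weights (adjusted p = 0.0978) and when the 24 h rats were fitted alone (adjusted p = 0.151). Among the 5 dosed and 6 vehicle rats with both arrays of 1 design the log2 difference was 0.85 (limma adjusted p = 0.126). There 4 of 16066 features (0.0249%) were called.

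Ccl6 had the opposite sign early after 2000 mg/kg. At 3 h its log2 ratio ran from -0.88 to -0.26 with a median of -0.79, against -0.89 to 0.36 with a median of -0.17 in vehicle rats. All 6 dosed rats lay below the vehicle mean, and the log2 difference of -0.51 missed the threshold (SE 0.20, limma adjusted p = 0.0944). At 6 h after 2000 mg/kg the rats were spread from -0.70 to 0.57, across the vehicle range of -0.46 to 0.11, and the log2 difference was 0.23 (limma adjusted p = 0.519). The difference at 24 h exceeded that at 3 h by 1.26 on the log2 scale (SE 0.28, limma adjusted p = 0.00354), where 2.73% of all features were called, and Ccl6 was the 1 member called of 30. This change was called in each of 24 fits that left out 1 rat, with values between 1.15 and 1.40. At 1500 mg/kg the same change was 0.60 (SE 0.28, limma adjusted p = 0.451). At 6 h after 1500 mg/kg Ccl6 ran from -0.07 to 0.67, with 6 of 6 rats above the vehicle mean, and its log2 difference was 0.46 (limma adjusted p = 0.239). At 150 mg/kg its log2 differences were 0.26, 0.17 and -0.11 at 3, 6 and 24 h, with no call.

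Some myeloid markers were called in the same comparisons. Of 17 listed neutrophil markers, with the chemokine receptors left out, 11 were tested, and at 24 h 4 were higher after 1500 mg/kg and 3 after 2000 mg/kg. Of all features 1.21% and 0.818% were called there in either direction. At 3 h 3 of the 11 were lower after 2000 mg/kg, where 8.32% of all features were called lower, and the list's median log2 difference was -0.0094. The calcium-binding protein gene S100a9 rose at 24 h by log2 differences of 2.47 (limma adjusted p = 0.000199) and 1.74 (limma adjusted p = 0.022), and the collagenase gene Mmp8 by 1.91 and 1.64. The neutrophil list mean per rat ran from 0.15 to 1.45 after 1500 mg/kg and from 0.28 to 1.24 after 2000 mg/kg, against -0.23 to 0.36 in vehicle rats. The median log2 difference over the 11 tested neutrophil markers at 24 h was smaller, 0.28 after 1500 mg/kg and 0.14 after 2000 mg/kg. Of 11 listed monocyte markers 10 were tested. At 24 h 2 were higher after each of these doses, and at 3 h after 2000 mg/kg 1 was higher and 5 were lower. The monocyte list mean at 3 h ran from -0.84 to -0.41 after 2000 mg/kg, against -0.33 to 0.11 in vehicle rats. At 24 h it ran from -0.11 to 0.30 after 2000 mg/kg, against -0.32 to 0.22 in vehicle rats. The median log2 difference over the 10 tested monocyte markers after 2000 mg/kg was -0.21 at 3 h and 0.08 at 24 h. The part of these lists in the Ccl6 result was not tested.

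Ccl6 lies next to Ccl9 and Ccl3 in a run of 4 CC ligand genes on chromosome 10 that also holds Ccl5, by the gene order of the GRCr8 assembly. Its neighbours gave no call. Ccl9, which in mouse binds Ccr1 as Ccl6 does, had log2 differences of 0.30 at 24 h after 1500 mg/kg (limma adjusted p = 0.446) and 0.10 after 2000 mg/kg (limma adjusted p = 0.879). Of its 2 probes, 1 had enough values to be tested alone. Ccl3, an inflammatory ligand of Ccr1, had log2 differences between -0.11 and 0.06. Ccl5, made by T and natural killer cells, had -0.31 at 24 h after 1500 mg/kg and -0.37 after 2000 mg/kg (limma adjusted p = 0.802 and 0.659), opposite in sign to Ccl6.

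Ccl2, which attracts monocytes through Ccr2, had the largest log2 differences among the members and was not called. It falls outside the rule for genes given in full and was chosen after its values were seen, as were Ccl22, Cxcl1, Cxcl2, Cxcl13 and Cxcl10. At 24 h after 2000 mg/kg its log2 ratio ran from -1.04 to 4.995 with a median of 0.90, against -0.83 to 0.19 with a median of -0.15 in vehicle rats. The rats were unlike each other: 3 of 6 lay above the highest vehicle rat and 1 below the lowest, and the SD was 2.18, against 0.45 in vehicle rats. The log2 difference was 1.67 (SE 0.48, limma adjusted p = 0.0856, 95% interval 0.71 to 2.63). The SE comes from the spread pooled over 12 groups and is small beside the spread of this group. Without the highest rat, number 5421, the log2 difference was 0.95 (adjusted p = 0.402). Without rat 2342, 7404 or 9999 of the same group it was 2.16, 1.93 or 1.94 and passed the threshold (limma adjusted p = 0.0073, 0.0371 and 0.034).

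After 1500 mg/kg at 24 h Ccl2 ran from -0.54 to 2.71 with a median of 0.42, and 4 of 6 rats lay above the highest vehicle rat. The log2 difference was 1.11 (SE 0.48, limma adjusted p = 0.41). The high values stood on both arrays of a rat. The highest 2000 mg/kg rat read 5.49 with the rat in Cy5 and 4.51 with the rat in Cy3, and the highest 1500 mg/kg rat read 2.95 and 2.47. At 3 and 6 h the log2 differences of Ccl2 lay between -0.12 and 0.29 at all 3 doses. Ccl2 is followed on chromosome 10 by Ccl7, Ccl11 and Ccl12, which like it encode monocyte or eosinophil attractants. At 24 h after 2000 mg/kg Ccl7 had a log2 difference of 0.04 (SE 0.07), Ccl11 one of 0.22 (SE 0.13) and Ccl12 one of 0.17 (SE 0.14), with no call.

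Ccl22, a ligand of Ccr4, had a mean log2 difference of -0.59 at 6 h after 2000 mg/kg that rested on 1 array. The log2 ratio there ran from -3.39 to 0.32 with a median of 0.11, against -0.12 to 0.66 with a median of 0.08 in vehicle rats. The rat at -3.39 read 0.34 on the array with the rat in Cy5 and -7.12 on the array with the rat in Cy3. The difference was not called (SE 0.25, limma adjusted p = 0.137), and in the other 8 comparisons with vehicle Ccl22 lay between -0.11 and 0.16.

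**Figure D3:**
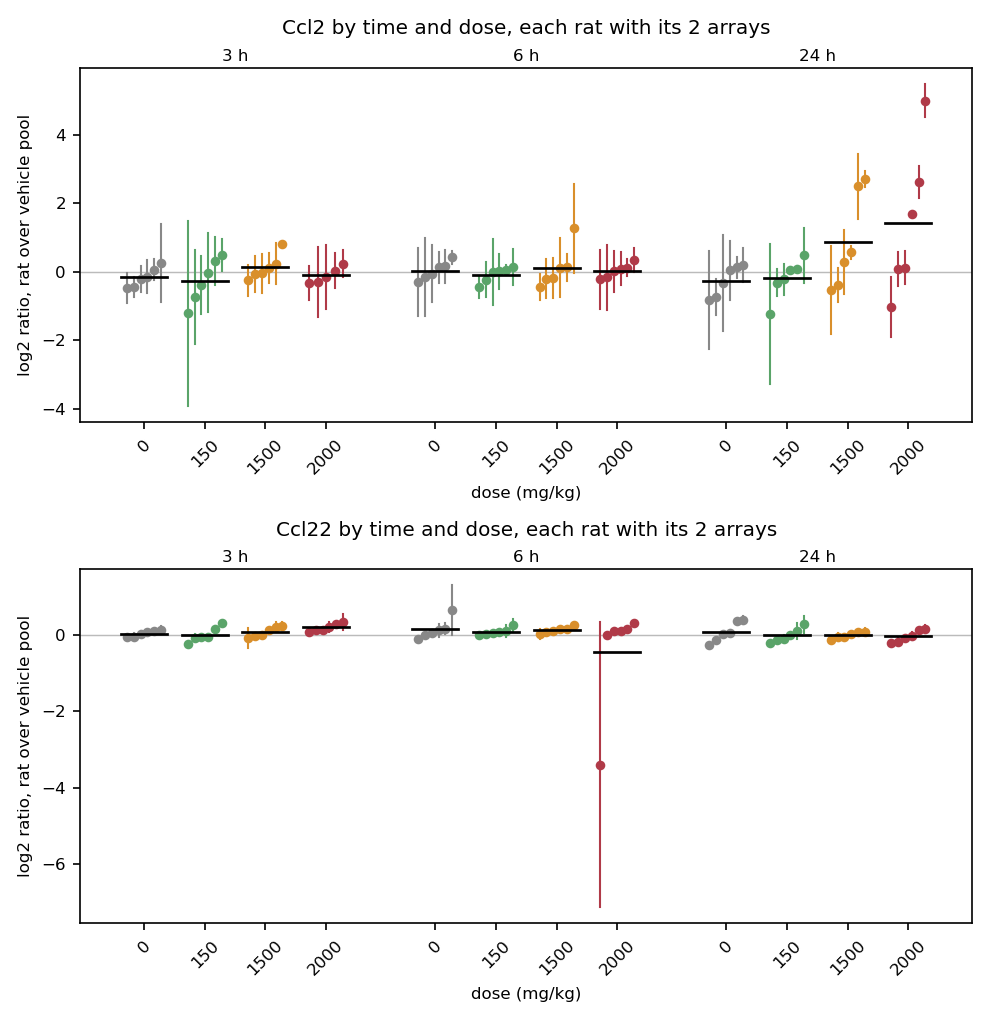
Log2 ratio over the vehicle pool of Ccl2 (top) and Ccl22 (bottom) by dose in mg/kg at 3, 6 and 24 h. A point is a rat's mean, the vertical line joins its 2 arrays, and the black bar is the group mean. In the 24 h groups of 1500 and 2000 mg/kg some rats of Ccl2 stand up to 2.71 and 4.995 while the lowest stand at -0.54 and -1.04. The low Ccl22 mean of 1 rat at 6 h (-3.39) joins an array at 0.34 and an array at -7.12.

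Cxcl1, Cxcl2, Cxcl3 and Cxcl6, which attract neutrophils through Cxcr2, lie near each other on chromosome 14. Cxcl2 at 6 h was above the vehicle mean in 6 of 6 rats at each dose. Its log2 ratio ran from -0.25 to 0.04 in vehicle rats, from -0.08 to 0.27 at 150, from -0.05 to 0.50 at 1500 and from 0.01 to 0.47 at 2000 mg/kg, and each dosed group overlapped the vehicle group through 1 vehicle rat at 0.04. The log2 differences were 0.27, 0.37 and 0.31 at 150, 1500 and 2000 mg/kg (SE 0.12), and none was called (limma adjusted p = 0.961, 0.108 and 0.107). These 3 comparisons share the vehicle rats. Cxcl1 had log2 differences at 24 h of 0.47, 0.98 and 0.72 at 150, 1500 and 2000 mg/kg with SEs of 0.46 to 0.48, and none was called. Only 4 vehicle rats had a value there, and rat 5480 among them read -1.61, where the next lowest read -0.35. Without that rat the Cxcl1 differences were 0.12, 0.63 and 0.37. Cxcl3 reached 0.44 at 24 h after 2000 mg/kg (SE 0.24, limma adjusted p = 0.576). Cxcl6 ran from -0.33 to 0.22 over the 9 comparisons.

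None of the remaining ligands was called. Cxcl13, a homeostatic ligand that draws B cells through Cxcr5, lay above the highest vehicle rat in 6 of 6 rats at 3 h after 2000 mg/kg. Its log2 ratio ran from 0.11 to 0.34, against -0.33 to 0.11 in vehicle rats. The groups nearly touched but did not overlap, and the log2 difference of 0.31 missed the threshold (SE 0.12, limma adjusted p = 0.0959). The ligands of Ccr7 were not called: Ccl19 had log2 differences between -0.09 and 0.21 and Ccl21 between -0.07 and 0.15. Cxcl16, a transmembrane ligand, lay between -0.37 and 0.19. Ccl24, an eosinophil attractant, lay between -0.05 and 0.03 with an SE of 0.03, the smallest among the members, and Ccl11, another one, lay between -0.11 and 0.28.

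Ligands and receptors were set side by side. Over the 9 comparisons with vehicle 1 of 180 ligand tests (0.556%) and 2 of 90 receptor tests (2.22%) were called, beside 2.5% of the tests of all features, and the receptors' share is close to that background. The share of tests with an unadjusted p under 0.05 was 10.6% for ligands and 11.1% for receptors, beside 11.3% for all features. The median size of the log2 difference was 0.10 for ligands and 0.07 for receptors, beside 0.08 for all features. At 24 h after 2000 mg/kg the median log2 difference was 0.07 over the ligands and 0.0045 over the receptors, where that of all features was -0.0023. At 3 h after 2000 mg/kg it was 0.12 over the ligands and 0.03 over the receptors, where that of all features was 0.03. These are descriptions of the 2 lists with no test between them.

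The precision differed widely between members. The error of a rat's mean was taken from the disagreement of its 2 arrays, as the SD over rats of their difference divided by 2, and was set beside the SD between rats within groups. For Ccl6 the array error was 0.09 and the spread between rats 0.35, a ratio of 3.83. Ccl5 had a ratio of 6.57 and Cxcr5 one of 4.74, above the ratios of 99.85% and 98.9% of tested features. For Ccr10 the array error of 0.24 was nearly as large as the spread of 0.28, a ratio of 1.16. Ccl2 had an error of 0.48 and a spread of 0.85. In 9 members the spread between rats was below the array error, among them Cxcl16, Ccr4 and Ccl9. For Ccl9, with 2 probes, the array error could include a probe read on only 1 array, which the rat values leave out. Its 2 SDs are thus not fully comparable. The median ratio was 1.18 over the 30 members and 1.2 over all features.

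**Figure D4:**
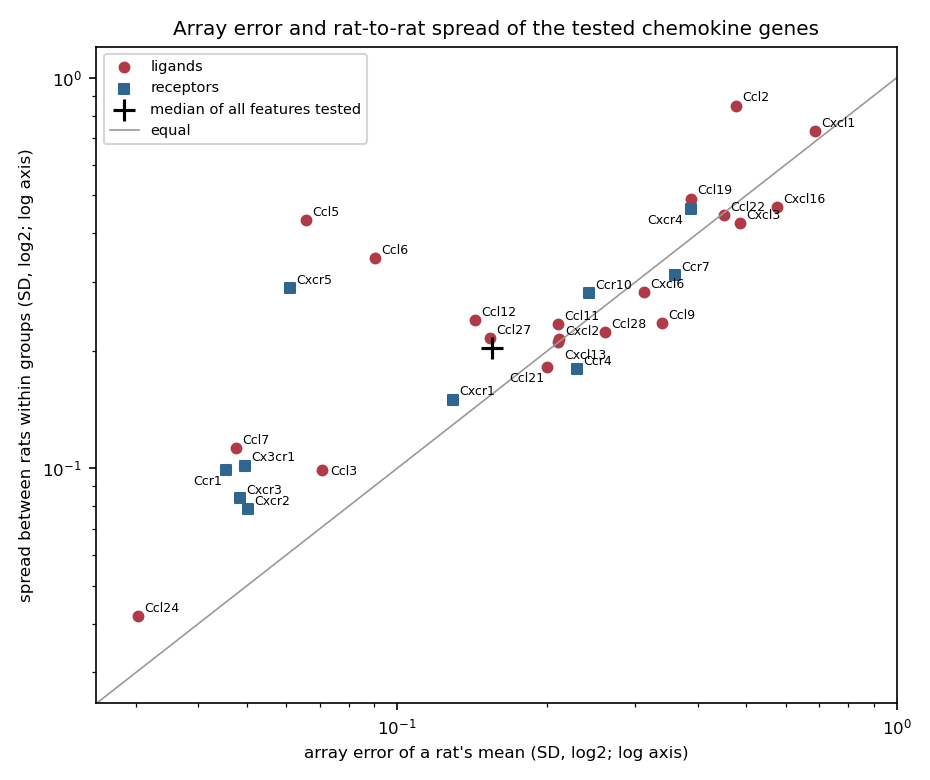
Array error of a rat's mean (horizontal, SD on the log2 scale, log axis) and spread between rats within groups (vertical, same unit, log axis) for 20 ligands (circles) and 10 receptors (squares). The grey line marks equality and the cross the median of all features tested (0.16 and 0.20). Ccl5, Ccl6 and Cxcr5 stand far above the line, while Ccr10 (0.24 and 0.28) stands close to it.

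The high doses differed in no called member. Between 2000 and 1500 mg/kg limma called no member and no other feature at 3, 6 or 24 h (0% each), with 1, 3 and 3 members at an unadjusted p under 0.05. The largest such difference at 3 h was that of Ccl6, -0.57 (SE 0.20, limma adjusted p = 1), which lay on that side of the 1500 mg/kg mean in 6 of 6 rats. For the change of a dose's difference between times limma called no member at 1500 mg/kg, where 0% (6 h minus 3 h), 0.225% (24 h minus 6 h) and 1.51% (24 h minus 3 h) of features were called, with 2, 1 and 2 members at an unadjusted p under 0.05. At 2000 mg/kg no member was called for 6 h minus 3 h (0.00681% of features) or 24 h minus 6 h (3.67%), with 2 members at an unadjusted p under 0.05 in each.

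The other 10 members were not tested because too few rats of some group had a nonzero value on both arrays. They were the ligands Ccl17, Ccl20, Ccl26, Cx3cl1, Cxcl10, Cxcl11 and Cxcl12 and the receptors Ccr2, Ccr3 and Ccrl2. Of 144 arrays, Ccl20 had a nonzero value on 16, Ccrl2 on 20 and Ccl26 on 27, while Ccl17 had one on 134 and Ccr3 on 132. Ccr2, the receptor for Ccl2, had one on 119. Cxcl10, an interferon-induced ligand of Cxcr3, had both arrays in 2 rats per dose at 24 h. These read -1.15 and 0.83 in vehicle rats, -0.39 and 0.27 at 150, 1.97 and 3.72 at 1500 and 0.47 and 1.95 at 2000 mg/kg. The 150 mg/kg rat that had both arrays at 6 h read 2.53.

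Genes around the chemokine system held further calls. Among 8 tested receptors for other leukocyte attractants, the complement receptor C5ar1 was called in both directions. Its log2 difference at 3 h was -1.23 after 1500 mg/kg and -1.99 after 2000 mg/kg (SE 0.26, limma adjusted p = 0.011 and 6.85e-07), and at 24 h it was 1.14 and 1.10 (limma adjusted p = 0.00635 and 0.0146). Its change from 3 to 24 h at 2000 mg/kg was 3.09 (SE 0.36, limma adjusted p = 7.25e-08), of the same sign as that of Ccl6. No other receptor of that list was called against vehicle. Ltb4r2, a receptor for leukotriene B4, had the opposite sign in the same change over time (-0.67, limma adjusted p = 0.0252), and was called with that sign also for 24 h minus 6 h at 2000 mg/kg (-0.63) and for both later changes at 1500 mg/kg (-0.77 and -0.65). Of 39 tested genes of signalling below chemokine receptors, 3 were lower at 3 h after 1500 mg/kg and 13 after 2000 mg/kg, and none was called higher. Of all features 1.24% and 8.32% were called lower there. They include Pik3cd, a leukocyte phosphoinositide kinase (-1.32 after 2000 mg/kg, limma adjusted p = 6.98e-05), Rac2, a GTPase of leukocyte movement (-1.11, limma adjusted p = 9.84e-06), and Rgs2, which limits G protein signals (-1.11, limma adjusted p = 1.88e-05). At 6 h 1 and 5 of these genes were lower, where 0.749% and 9.22% of all features were called in either direction, and at 24 h none was called. Of 9 tested other chemokines and atypical receptors, Rarres2, the gene for the attractant chemerin, was lower at 6 h after 2000 mg/kg (-0.56, limma adjusted p = 0.0116), and no other was called against vehicle. This 1 of 9 is near the 9.22% of all features called in that comparison.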

How the data were processed

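Blood RNA of 72 rats was measured on 144 two-colour arrays. The deposited values were taken as log10 ratios that the authors had already processed; no label or file header states their scale, centring, direction or software, which is not given in the sources at hand. Array medians of the nonzero values lay between -0.00754 and 0.00873 and exact zeros made up 10.9% of values. Time and dye came from the labels and dose from the deposited key, whose times matched the labels for 72 of 72 rats. Values were converted to log2 of rat over pool, with exact zeros treated as missing. Arrays of 1 dye orientation and time correlated between -0.272 and 0.821. An animal's value needed both arrays. Probes were named by the platform annotation, and probes of 1 gene were averaged. A feature needed a value in 4 of 6 rats in each of 12 groups, which left 14678 features with 0.687% of values missing and none imputed.

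One limma fit (3.58.1, R 4.3.3) of 12 group means gave 18 two-sided comparisons, with the spread shared by all rats, Benjamini-Hochberg adjustment over all features and a threshold of 0.05, and its code was tested on simulated data. Intervals are 95% and unadjusted. Members called in a comparison of a dose with vehicle were to be given in full and other tested members by their range. From the lists up to 4 called genes per comparison could be named. Alternatives were exact zeros kept, single probes, 2 rats per group, array weights, array design as a covariate, single arrays with the rat as a random block (statmod 1.5.0), centred arrays, 1 time alone, a 1.5-fold minimum and 1 rat left out; the restriction to 1 array design was added after seeing the data. The members and lists were chosen with earlier results of these data known. Tables came from pandas 2.3.3 under Python 3.11.15 and figures from matplotlib 3.10.9.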

Additional observations from a re-analysis of the deposited data

Results flagged for a closer look

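Single rats lay apart from the other rats of their group by Dixon's test in 24 of 360 tested groups of 4 to 6 rats over the 30 members, where chance flags about 1 group in 20. Among the members whose groups are described above there were 9. In Ccl2 the highest 1500 mg/kg rat at 6 h read 1.26. In Ccl22 at 6 h they were the lowest 2000 mg/kg rat at -3.39, which rests on 1 array, the highest 150 mg/kg rat at 0.26 and the highest vehicle rat at 0.66. In Cxcl2 at 6 h they were the highest 2000 mg/kg rat at 0.47 and the highest vehicle rat at 0.039. The low Ccl22 and the high Cxcl2 value after 2000 mg/kg belong to the same rat, 3763, and the 2 high vehicle values of Ccl22 and Cxcl2 to rat 6034. In Cxcl1 the lowest vehicle rat at 24 h read -1.61. In Ccl6 the highest 2000 mg/kg rat at 3 h read -0.26, and in Cxcl13 the highest 1500 mg/kg rat at 24 h read 0.54.

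The Ccl6 difference after 2000 mg/kg was larger at 24 h than at 3 h by 1.26 on the log2 scale, tested as the difference of the 2 differences (limma adjusted p = 0.00354).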

How the results depend on the processing

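The count of members called was computed again under the alternatives for 18 comparisons, giving 454 counts, of which 416 equalled the count reported. The reported count was 0 or 1 in each comparison, so that this agreement says little. No log2 difference of Ccr10, Ccl6, Ccl2 or Cxcl1 followed there changed sign. Array weights called 5 members after 2000 mg/kg at 3 h, 3 at 6 h after 1500 and 3 after 2000 mg/kg, 0 after 2000 mg/kg at 24 h, 1 and 3 between the high doses at 3 and 6 h, and 1, 1 and 2 for the 2000 mg/kg changes from 3 to 6, 6 to 24 and 3 to 24 h. The same weights called 26.7%, 12.4% and 23.6% of all features in the first 3 of these, so that those 3 counts lie at or below that background. They called 4.18% between the high doses at 3 h and at 6 h, and 0.409%, 9.91% and 11.9% for the changes over time. The fit of 1 time alone called 2 at 3 h after 2000 mg/kg, 1 and 2 at 6 h after 1500 and 2000 mg/kg, and 0 at 24 h after 2000 mg/kg. Of all features that fit called 10.2%, 1.51%, 10.7% and 0.0265% in these 4 comparisons. Single arrays with the rat as a random block called 2 at 3 h after 2000, 1 at 6 h after 1500, 2 at 24 h after 1500 and 2 at 24 h after 2000 mg/kg (Ccl2 and Ccl6). Of all features that setting called 9.61%, 3.86%, 1.94% and 1.76% in these comparisons. Exact zeros kept gave 0 at 24 h after 2000 mg/kg, where 0.59% of all features were called. Rats of the fuller design alone gave 0 at 3 h at both high doses, where no feature at all was called, and rats of the other design 1 at 6 h (Ccr10) and 0 at 24 h after 2000 mg/kg. In that other design 12.6% of all features were called at 6 h and 0.0249% at 24 h after 2000 mg/kg. The cause was not tested. Leaving out 1 rat gave 0 to 2 members at 24 h after 2000 mg/kg, 0 to 1 at 24 h after 1500, 0 to 1 at 6 h after 1500, 0 to 1 at 6 h after 2000 and 1 to 2 at 3 h after 2000 mg/kg. Ccl6 joined Ccr10 at 3 h after 2000 mg/kg without vehicle rat 3482 or dosed rat 4010. At 6 h Cxcl2 was called after 1500 mg/kg without dosed rat 0621, and Ccr10 after 2000 mg/kg without dosed rat 2864. At 24 h after 2000 mg/kg Ccl2 and Ccr10 were called in place of Ccl6 without dosed rat 2342 or 7404. At 24 h after 1500 mg/kg Ccl6 was called without vehicle rat 7067 or dosed rat 8385, and Ccr1 without vehicle rat 2431. The share of all features called was not computed for fits that left out 1 rat. These counts and names thus have no background beside them and are no result about the members. Ccr10 at 3 h stayed called in 12 of 12 such fits at each high dose, between -0.91 and -0.73 at 1500 and between -0.73 and -0.61 at 2000 mg/kg. Centring moved no median of all features by 0.01. The number of rats and arrays limits precision, and no signal over background was used here.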
